A study of Mus musculus with 9 samples.

Results

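The genes described here encode the proteasome, its regulators and the chaperones that assemble it. They are the 49 protein-coding rows of the count table whose symbol is Psma, Psmb, Psmc, Psmd, Psme, Psmf or Psmg followed by a number and, in 1 case, a letter, out of 56748 genes in all. Of the 49, 48 passed the filter on low counts, which kept 15502 genes for testing. The exception was Psmb11, the catalytic subunit of the thymus proteasome, which had 0 counts in all 9 libraries. Expression was measured by RNA sequencing in chondrocytes, the cells of cartilage, taken from knee cartilage of wild-type mice by collagenase digestion and grown in culture. Each of 3 groups had 3 libraries: untreated controls, cultures stimulated with IL-1β (interleukin-1β), and cultures that received both IL-1β and recombinant SFRP5 (secreted frizzled-related protein 5), which binds Wnt proteins. No dose, treatment time or age of the mice is given in the labels, and no group received SFRP5 alone. The labels do not say whether libraries came from separate cultures or animals. The p-values thus set each difference only against the spread of libraries within groups, and that spread may be technical.

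The proteasome is the cell's main protease for proteins tagged with ubiquitin. Its barrel, the 20S core, has outer rings of alpha subunits that gate the entrance and inner rings of beta subunits, some of which carry the cutting sites. The 19S regulatory particle caps the barrel: its base holds the ATPase ring that unfolds substrates, and its lid holds the enzyme that removes ubiquitin. Interferon-γ induces an alternative set of catalytic subunits, the immunoproteasome, and the PA28 activator, both known for their part in making peptides for MHC class I. IL-1β provokes an inflammatory and matrix-degrading state in cartilage cells through NF-κB, among other routes.

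Promoter sequence is shown for the 3 members with the largest rise with IL-1β, for Psmb5, the constitutive catalytic subunit that fell most, and for Psmd13, a lid gene called lower whose matched bases are the same as in Psmd11. RefSeq start sites (build GRCm38.p6) were listed for 41 of the 49 members, with 44 starts in all, and the 250 bases before each start were searched on both strands for 4 motifs. These were the antioxidant response element TGACNNNGC, the interferon-stimulated response element GAAANNGAA, the NF-κB consensus, and CCAAT. The first line below is the 100 bases just before the start of Psmd8, the member with the largest rise, where none of the 4 motifs was found (chr7:29180674-29180773, minus strand). The next lines show the match to the NF-κB consensus in Psmd11 (chr11:80428486-80428535, plus strand), 109 to 100 bases before its start, and the one in Psma6 (chr12:55398735-55398784, plus strand), 70 to 61 bases before the second of 2 listed starts. The line for Psmb5 shows its match to the antioxidant response element (chr14:54618014-54618062, minus strand), 47 to 39 bases before its start. The last shows the match to the NF-κB consensus in Psmd13 (chr7:140882333-140882382, plus strand), 41 to 32 bases before its start. All members with this consensus were Psmd11, Psma6, Psma7, Psmd12 and Psme4, called higher with IL-1β, and Psmd13, called lower. Among all genes tested 38.5% were higher and 40.4% lower, and a link of matches to calls was not tested. All are written 5′ to 3′ along the gene, and capitals mark the matched bases.
Psmd8: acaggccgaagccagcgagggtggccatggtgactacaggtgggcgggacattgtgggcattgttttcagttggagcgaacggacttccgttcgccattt
Psmd11: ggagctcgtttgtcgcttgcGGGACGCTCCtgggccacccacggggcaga
Psma6: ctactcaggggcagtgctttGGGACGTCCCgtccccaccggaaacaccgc
Psmb5: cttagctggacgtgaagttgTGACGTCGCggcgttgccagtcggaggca
Psmd13: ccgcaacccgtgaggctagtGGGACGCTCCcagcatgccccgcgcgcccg
The NF-κB consensus was present in 6 of 44 member windows (13.6%) and in 7.25% of all 32851 windows of the same length. The antioxidant response element was in 5 of 44 (11.4%, against 10.2% of all), the interferon-stimulated response element in 3 of 44 (6.82%, against 7.13%), and CCAAT in 14 of 44 (31.8%, against 33.9%). For 19 of the 41 members no window held any of the 4. A match describes letters in a window and is not evidence of binding.

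Total counts per library were 15795985 to 20688963. Levels are in CPM, the counts scaled to library size after correction for library composition (TMM factors), given for replicates 1, 2 and 3 in that order, and changes are log2 fold changes ± SE from edgeR's quasi-likelihood test, adjusted by the Benjamini-Hochberg method over all 15502 genes. Genes with an adjusted p under 0.05 are those called higher or lower. All 8 chondrocyte markers examined (Col2a1, Acan, Sox9, Col9a1, Col11a1, Hapln1, Comp and Matn3) were detected, with a summed level of 105771 to 108087 CPM in controls, 21321 to 22462 CPM with IL-1β and 26973 to 28306 CPM with SFRP5 added. Of 10 myeloid markers 5 were tested, and the list summed to 15.5 to 17.0, 44.6 to 47.2 and 32.6 to 37.1 CPM in the same order. The rise with IL-1β was mostly Cd14, from a mean of 1.25 to 27.4 CPM, with Cd68 and Csf1r also higher, while Laptm5 was lower (log2 -1.89) and Lyz2 was not called. The defining myeloid genes Ptprc and Adgre1 had 6, 12 and 6 and 20, 20 and 20 counts per group. Lymphocyte markers Cd3e, Cd3d, Cd3g and Nkg7 were at 0 counts, and Cd79a had 4, 0 and 1. The 5 endothelial markers summed to 0.361 to 0.508, 3.33 to 4.19 and 2.24 to 3.25 CPM in the same order of groups. The 2 that were tested, Cdh5 and Tek, were both higher with IL-1β (log2 6.23 ± 0.72 and 2.18 ± 0.46). Both were scarce, with 1, 87 and 42 counts per group for Cdh5 and 18, 68 and 94 for Tek. The synovial fibroblast list (Pdpn, Thy1, Prg4, Cd34 and Clic5) summed to 125 to 134, 863 to 920 and 1081 to 1118 CPM, mostly Prg4 and Pdpn. Its genes did not move together: Thy1 was lower with IL-1β (log2 -2.28), and with SFRP5 added Prg4 was higher (log2 0.83) while Pdpn and Cd34 were lower (log2 -0.73 and -0.97). The part of other cells in the results below was not tested, and in bulk RNA fewer cells of a type and less RNA per cell cannot be told apart.

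With IL-1β the proteasome genes did not move as a block. Among the 48 tested members 20 were higher than control (41.7%) and 18 lower (37.5%), beside 38.5% and 40.4% of all genes tested, so the shares were near the background in both directions. At least 2-fold changes were fewer: 2 members were higher, Psmd8 and Psmd11, and 6 were lower, Psma8, Psmb5, Psmb9, Psmb10, Psmg1 and Psme2, beside 18.4% and 21.2% of all genes. The median log2 change of the members was -0.10, beside -0.03 for all genes. Upper-quartile scaling moved both medians down, to -0.25 and -0.18, and left 17 members higher and 22 lower.

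**Figure D1:**
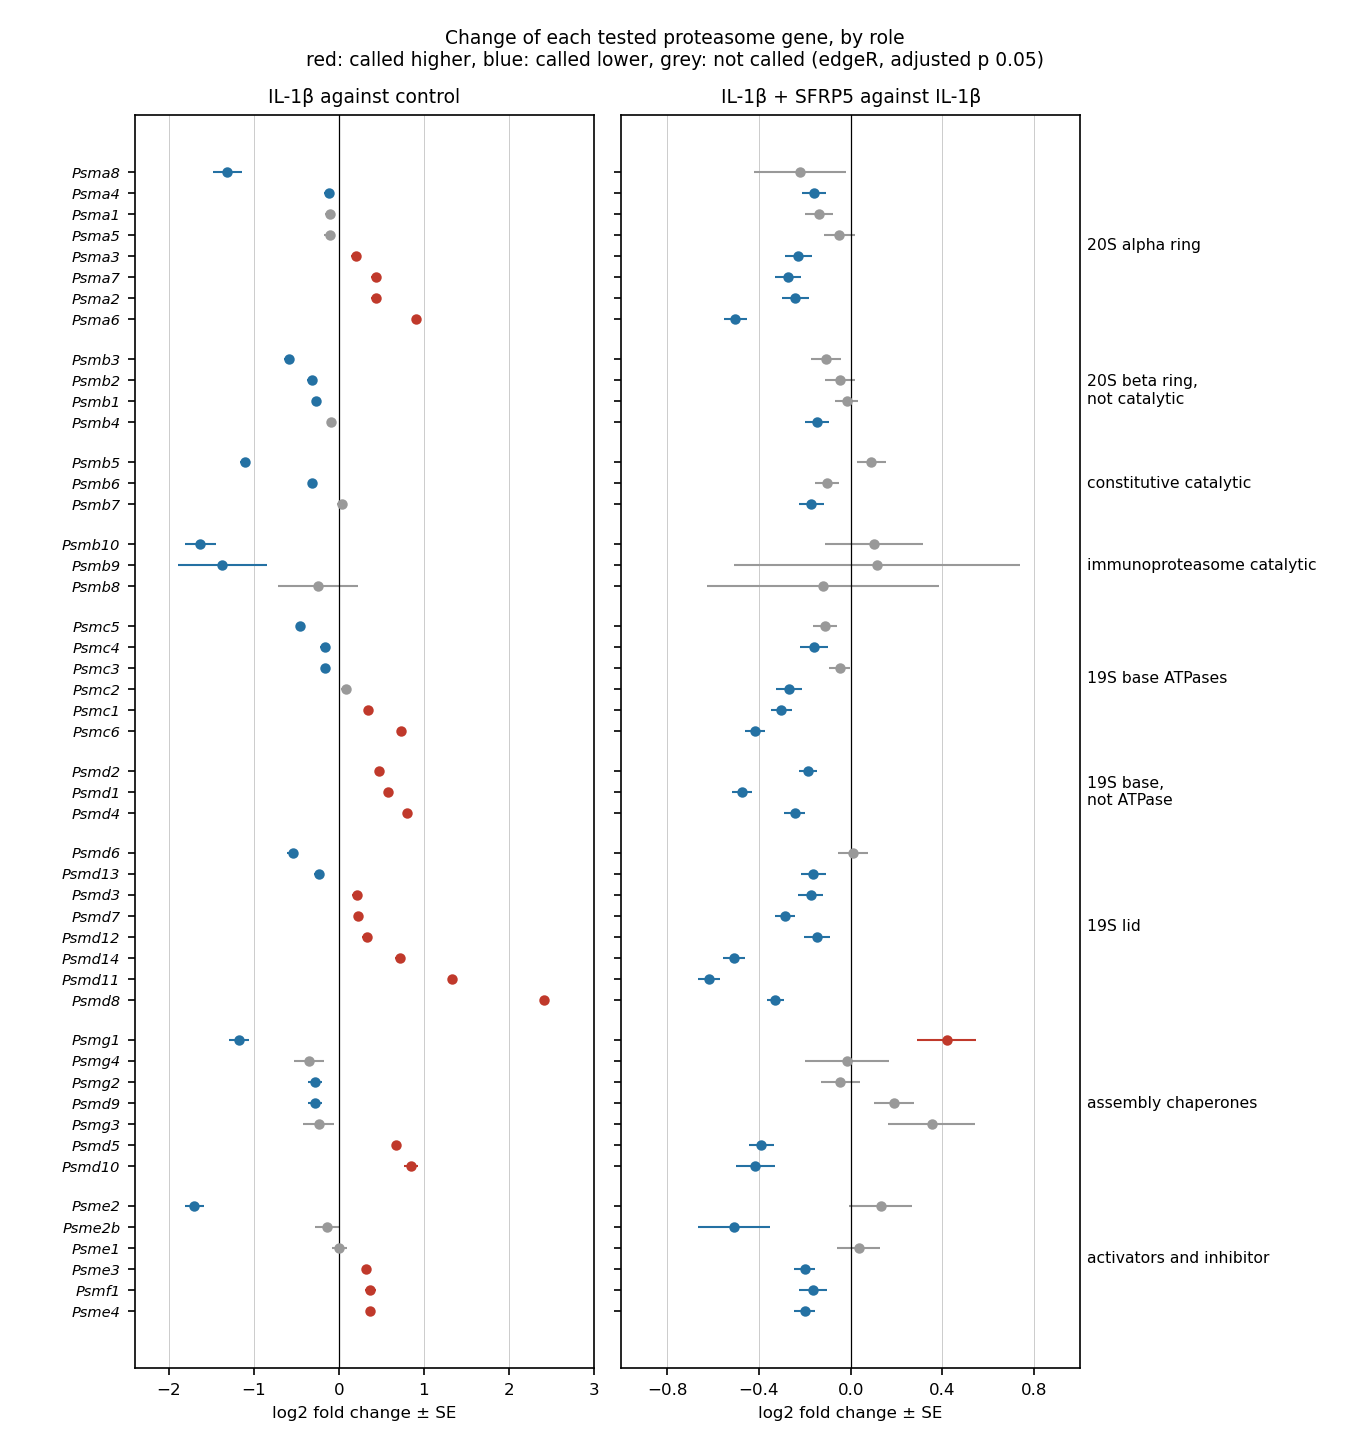
Log2 fold change ± SE of each tested member (rows, grouped by role) for IL-1β against control (left) and IL-1β with SFRP5 against IL-1β (right); red and blue mark genes called higher and lower, grey those not called. With IL-1β the members lie on both sides of 0, from -1.70 for Psme2 to 2.42 for Psmd8, whereas with SFRP5 added 1 member was called higher and 27 lower.

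The parts of the particle differed in their counts. Of the 17 members in the 19S particle, 11 were higher with IL-1β (64.7%), 5 lower (29.4%) and 1 was not called. Their median log2 change was 0.33. The subunits Sem1 and Adrm1, given further below, lack a Psm symbol and are not in these counts and sums. Of the 14 constitutive genes of the 20S core (the alpha and beta rings without the testis form Psma8), 4 were higher (28.6%), 6 lower (42.9%) and 4 not called. The median of these core genes was -0.11. Among all genes tested 38.5% were higher and 40.4% lower, so the share of core genes called lower was near the background. The summed level of the 19S genes was 1509 to 1545 CPM in the control libraries, 2326 to 2362 CPM with IL-1β and 1874 to 1940 CPM with SFRP5 added, 3 ranges that did not overlap. The core genes summed to 938 to 1006, 951 to 994 and 839 to 904 CPM, so the control and IL-1β ranges overlapped and the range with SFRP5 lay below both. Within the core the parts moved apart: the alpha ring, here with Psma8, summed to 435 to 478 CPM in controls and 544 to 562 CPM with IL-1β. Beta genes without a cutting site went from 304 to 321 CPM down to 252 to 268 CPM. The constitutive catalytic genes went from 208 to 215 CPM down to 159 to 171 CPM. Without Psmd8 the 19S sum was 1414 to 1449, 1826 to 1850 and 1483 to 1527 CPM. These sums weigh genes by their reads and were not tested.

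**Figure D2:**
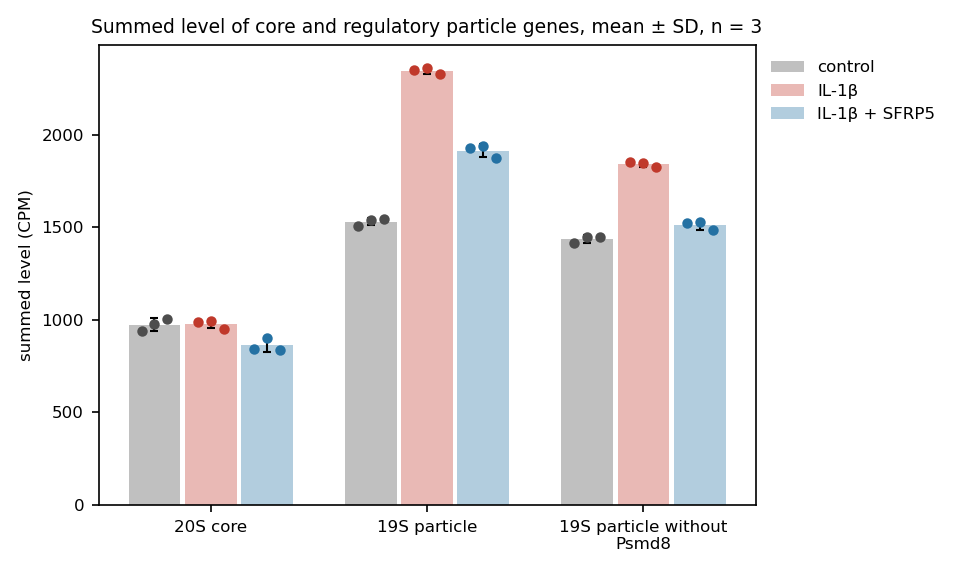
Summed level (CPM) of the 20S core genes, of the 19S genes, and of the 19S genes without Psmd8, as points per library and bars for the mean ± SD of 3 libraries. The core bars of control and IL-1β stand level, at 974 and 978 CPM, while the 19S bars rise from 1531 to 2345 CPM. The level core bars join an alpha ring whose sum rose and beta genes whose sums fell.

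The largest change of any member was in the lid. Psmd8, a lid subunit that is among the last to join during assembly, stood at 94.5, 92.4 and 96.1 CPM in controls, 498, 515 and 499 CPM with IL-1β, and 401, 413 and 391 CPM with SFRP5 added. No 2 groups overlapped, and the IL-1β libraries were 5.35-fold above control (log2 2.42 ± 0.04, edgeR adjusted p = 6.15e-26). Per kilobase of gene length Psmd8 became the most abundant of the 49 members, at 165 CPM per kb with IL-1β against 30.9 in control, and it was also first when the length of its principal GENCODE M21 transcript was used (328 CPM per kb). In control cells the order depended on the length used: Psmb5 was first by the deposited length (70.7 CPM per kb) and Psmb4 by the principal transcript (95.1 CPM per kb).

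Psmd11, a lid subunit that clamps the lid to the core, had the second largest rise. Its levels were 61.6, 69.4 and 63.8 CPM in controls, 164, 170.0 and 158 CPM with IL-1β, and 107, 108 and 105 CPM with SFRP5. The groups did not overlap, and the rise with IL-1β was 2.52-fold (log2 1.34 ± 0.05, edgeR adjusted p = 1.56e-18). The other lid genes called higher were Psmd14, the deubiquitinating enzyme, at a log2 change of 0.71, its partner Psmd7, and Psmd3 and Psmd12. Psmd3 and Psmd7 were no longer called under upper-quartile scaling (log2 0.06 and 0.08). Psmd13 was lower, and so was Psmd6, which fell from 71.5, 75.3 and 69.9 CPM to 47.9, 46.3 and 54.4 CPM (log2 -0.54 ± 0.06, edgeR adjusted p = 2.29e-08). With SFRP5 added Psmd6 was at 54.5, 49.2 and 45.5 CPM, overlapping the IL-1β libraries. Lid members thus went in both directions, 6 higher (75%) and 2 lower (25%), beside 38.5% and 40.4% of all genes tested. Sem1, a lid subunit without a Psm symbol, was also lower with IL-1β (log2 -0.39 ± 0.07, edgeR adjusted p = 3.46e-05).

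The 3 members in the base that are not ATPases were all higher with IL-1β, beside 38.5% of all genes tested. Psmd4, a ubiquitin receptor, rose from 75.8, 77.2 and 77.6 CPM to 129, 131 and 142 CPM (log2 0.80 ± 0.05, edgeR adjusted p = 2.69e-14) and stood at 116, 113 and 111 CPM with SFRP5. Psmd1, one of the large scaffold subunits, was at 108, 108 and 113 CPM in controls, 163, 166 and 160.0 CPM with IL-1β and 118, 118 and 116 CPM with SFRP5 (log2 0.57 ± 0.04 for IL-1β, edgeR adjusted p = 3.12e-12). The other large scaffold, Psmd2, was at 226, 212 and 222 CPM, then 304, 308 and 306 CPM, then 270.0, 273 and 263 CPM (log2 0.47 ± 0.04 for IL-1β, edgeR adjusted p = 2.98e-11). In each of these 3 genes the groups did not overlap and the libraries with SFRP5 lay between control and IL-1β. How common this order is among all genes tested was not counted. Adrm1, a base subunit without a Psm symbol, was not called for IL-1β (log2 -0.10 ± 0.05, edgeR adjusted p = 0.0818).

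The ATPase ring was split, with 33.3% of its genes higher and 50% lower, beside 38.5% and 40.4% of all genes tested. Psmc6 had the largest rise of its 6 genes, with 87.7, 93.2 and 93.3 CPM in controls, 153, 148 and 155 CPM with IL-1β and 115, 115 and 112 CPM with SFRP5 (log2 0.74 ± 0.04, edgeR adjusted p = 4.94e-14). Psmc1 was also higher. Psmc2 was not called, but was called higher without IL-1β replicate 3 (edgeR adjusted p = 0.00527). Psmc3, Psmc4 and Psmc5 were lower. Psmc5 fell most, from 82.3, 81.5 and 79.0 CPM to 56.6, 59.2 and 61.0 CPM (log2 -0.46 ± 0.05, edgeR adjusted p = 1.25e-08), and was at 57.3, 55.5 and 50.7 CPM with SFRP5. Psmc3 was at 91.0, 90.7 and 89.4 CPM in controls, 82.0, 81.1 and 78.6 CPM with IL-1β and 76.0, 77.6 and 80.4 CPM with SFRP5, a small difference from control without overlap (log2 -0.17 ± 0.04 for IL-1β, edgeR adjusted p = 0.00176). An opposite-strand gene, Slc39a13, overlaps Psmc3 and held 18333 counts against its 13735. Whether reads were counted by strand is not stated in the labels. Psmc4 lost its call without IL-1β replicate 2 or 3 (edgeR adjusted p = 0.106 and 0.115) and in DESeq2 (adjusted p = 0.0665).

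In the alpha ring of the core, 4 of 8 genes were higher with IL-1β (Psma2, Psma3, Psma6 and Psma7). Another 2 were lower (Psma4 and Psma8) and 2 were not called (Psma1 and Psma5). These shares were 50% higher and 25% lower, beside 38.5% and 40.4% of all genes tested. Psma6 rose most, from 59.8, 64.0 and 61.5 CPM to 122, 116 and 112 CPM, and stood at 78.1, 83.5 and 84.7 CPM with SFRP5. The groups did not overlap, and the rise was 1.88-fold (log2 0.91 ± 0.05, edgeR adjusted p = 7.02e-15). Psma8, the testis form of an alpha subunit, was low throughout, at 9.14, 7.45 and 8.48 CPM in controls, 2.61, 3.33 and 4.10 CPM with IL-1β and 2.56, 2.93 and 3.19 CPM with SFRP5 (log2 -1.31 ± 0.17 for IL-1β, edgeR adjusted p = 1.65e-07). Psma5 was at 40.0, 42.2 and 48.7 CPM, then 40.5, 39.2 and 41.7 CPM, then 40.4, 38.5 and 38.4 CPM, with overlapping groups. The smallest of these calls, Psma4 at log2 -0.12, was lost without control replicate 2 or 3, IL-1β replicate 1 or 3, or SFRP5 replicate 2 (edgeR adjusted p = 0.0700 to 0.369), and in DESeq2 (adjusted p = 0.156). Psma1 and Psma5, not called, were called lower without IL-1β replicate 1 and control replicate 1 (edgeR adjusted p = 0.045 and 0.0321) and under upper-quartile scaling. Psma3, at log2 0.20, was not called under upper-quartile scaling (log2 0.05). Its near-identical pseudogene rows held 5629 counts beside its own 10730, and with them added the change was 0.21.

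None of the beta ring genes rose with IL-1β. Among the 4 without a cutting site Psmb1, Psmb2 and Psmb3 were lower (75%, beside 40.4% of all genes tested) and Psmb4 was not called. Psmb3 went from 52.6, 54.2 and 57.4 CPM to 38.0, 37.4 and 34.0 CPM, with 35.7, 33.9 and 31.7 CPM when SFRP5 was added (log2 -0.59 ± 0.06 for IL-1β, edgeR adjusted p = 3.15e-09). Psmb1 was at 89.8, 96.3 and 91.8 CPM in controls, 78.3, 78.1 and 74.8 CPM with IL-1β and 74.1, 81.9 and 72.6 CPM with SFRP5 (log2 -0.27 ± 0.05, edgeR adjusted p = 3.91e-05). In both genes all control libraries lay above all others. Psmb4 was at 110.1, 109.8 and 118 CPM, then 105, 109 and 102 CPM, then 89.5, 103 and 93.4 CPM (log2 -0.09 ± 0.05 for IL-1β, edgeR adjusted p = 0.0966), and it was called lower only under upper-quartile scaling (log2 -0.24).

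Of the 3 constitutive catalytic subunits 2 were lower with IL-1β (66.7%, beside 40.4% of all genes tested) and 1 was not called. Psmb5, which carries the chymotrypsin-like site that clinical proteasome inhibitors bind, fell from 64.1, 62.7 and 63.9 CPM to 28.6, 28.6 and 31.1 CPM and was at 31.2, 29.9 and 33.0 CPM with SFRP5. The control libraries stood apart from both other groups, which overlapped, and the fall was 2.16-fold (log2 -1.11 ± 0.06, edgeR adjusted p = 2.88e-15). Psmb6, the caspase-like subunit, was at 73.0, 69.8 and 76.1 CPM, then 59.0, 61.5 and 55.7 CPM, then 54.7, 55.7 and 53.6 CPM (log2 -0.31 ± 0.05 for IL-1β, edgeR adjusted p = 4.84e-06). Psmb7, the trypsin-like subunit, was at 70.9, 75.7 and 75.3 CPM in controls, 74.1, 81.1 and 72.0 CPM with IL-1β and 67.9, 71.2 and 62.7 CPM with SFRP5. Its control and IL-1β libraries overlapped (log2 0.03 ± 0.05, edgeR adjusted p = 0.583). Nek6 overlaps Psmb7 on the opposite strand and held 7922 counts beside 11923 for Psmb7.

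**Figure D3:**
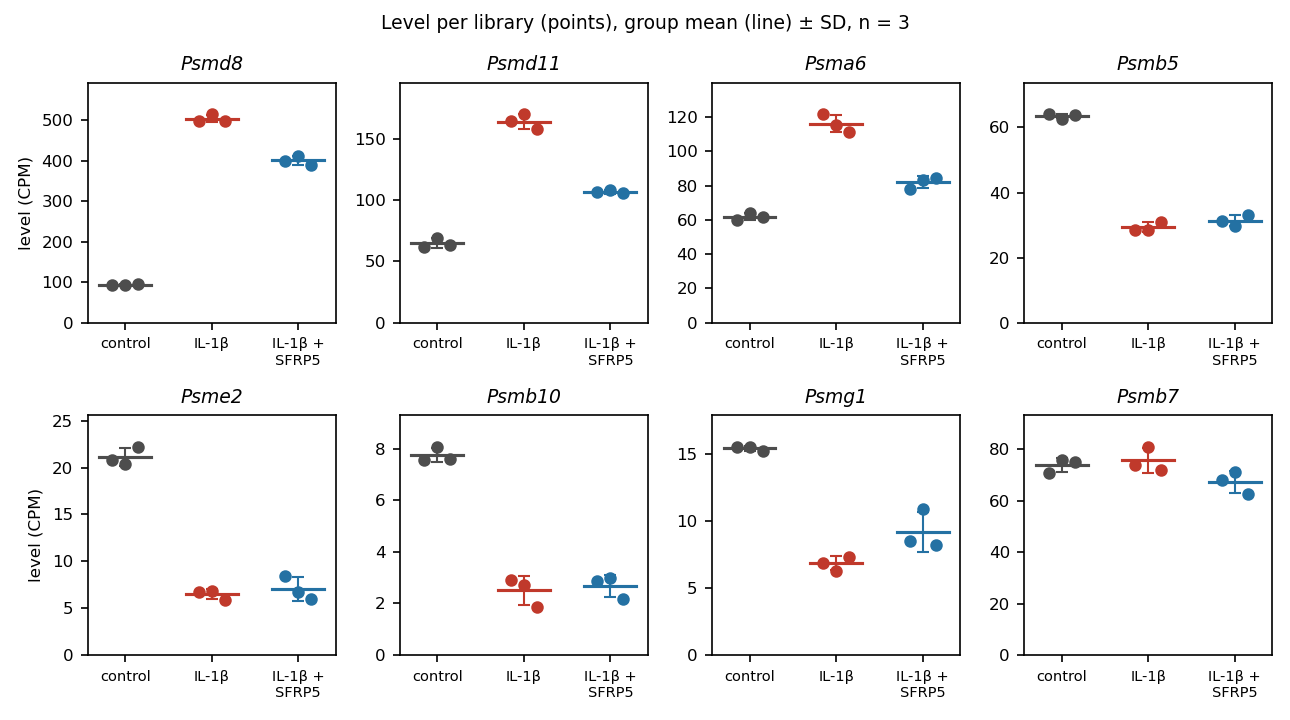
Level (CPM) of 8 members in each library (points), with the group mean and SD of 3 libraries; each panel has its own axis from 0. Psmd8, Psmd11 and Psma6 are highest with IL-1β and intermediate with SFRP5 added, Psmb5, Psme2 and Psmb10 are low in both treated groups, Psmg1 is lowest with IL-1β, and Psmb7 overlaps between control and IL-1β.

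The immunoproteasome subunits were scarce and did not rise with IL-1β. Psmb10, the inducible counterpart of Psmb7, fell from 7.58, 8.08 and 7.62 CPM in control to 2.92, 2.72 and 1.88 CPM with IL-1β and was at 2.86, 2.99 and 2.18 CPM with SFRP5. Both treated groups lay below all control libraries, and the fall with IL-1β was 3.1-fold (log2 -1.63 ± 0.18, edgeR adjusted p = 1.04e-08). Psmb10 is overlapped on the opposite strand by Gm16156, with 381 counts beside its 746. Psmb9, the counterpart of Psmb6, was at 0.808, 0.677 and 0.863 CPM, then 0.243, 0.606 and 0.0569 CPM, then 0.345, 0.325 and 0.295 CPM. These are 48, 15 and 17 counts per group, and the value of 3 counts per library was 0.135 to 0.195 CPM, so 1 IL-1β library was below it. Psmb9 was called lower (log2 -1.37 ± 0.52, edgeR adjusted p = 0.0203), but the call was lost without control replicate 3, IL-1β replicate 1 or IL-1β replicate 3 (edgeR adjusted p = 0.0574, 0.0739 and 0.157) and in DESeq2 (adjusted p = 0.0849). It also overlaps Tap1 on the opposite strand, which had 2156 counts against its 80. Psmb8, the counterpart of Psmb5, was at 0.455, 0.722 and 0.508 CPM, then 0.425, 0.666 and 0.342 CPM, then 0.493, 0.585 and 0.236 CPM, with 35, 24 and 23 counts and overlapping groups. At this depth no difference in Psmb8 was detectable (log2 -0.25 ± 0.47 for IL-1β, edgeR adjusted p = 0.641). Of the myeloid markers given above, Cd14, Cd68 and Csf1r were higher with IL-1β and Laptm5 was lower, and their part in these levels was not tested.

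Set against its partner per kilobase, each inducible subunit was the minority. Psmb10 made up 16.9% to 17.7% of the Psmb10 and Psmb7 total in control, 4.98% to 7.32% with IL-1β and 6.53% to 7.79% with SFRP5. With the length of the principal transcripts the shares were smaller, at 8.22% to 8.64%, 2.26% to 3.36% and 2.99% to 3.59%. Psmb9 was 0.493% to 0.577% of its pair with Psmb6 in control and 0.0523% to 0.501% with IL-1β. Psmb8 was 0.188% to 0.306% of its pair with Psmb5 in control and 0.291% to 0.615% with IL-1β, ranges that overlap, over a partner that fell. Each share is a description over libraries, without a test.

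**Figure D4:**
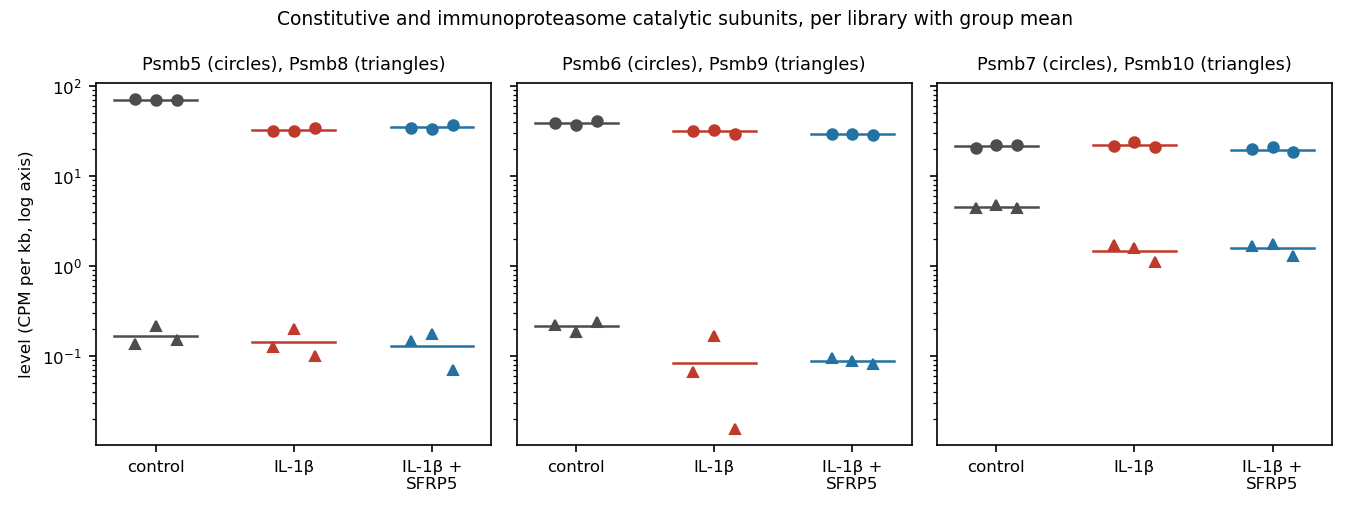
Level per kilobase of deposited gene length (CPM per kb, log axis) of each constitutive catalytic subunit (circles) and its immunoproteasome counterpart (triangles), per library with the group mean as a line. The counterparts lie below their partners in all 9 libraries, Psmb10 closest, at 4.55 CPM per kb in control and 1.47 with IL-1β against 21.6 and 22.1 for Psmb7.

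Of the 7 assembly chaperones 2 were higher with IL-1β (28.6%), 3 lower (42.9%) and 2 not called. Among all genes tested 38.5% were higher and 40.4% lower. Psmg1 and Psmg2, the dimer that guides the alpha ring, were both lower with IL-1β. Psmg1 went from 15.6, 15.5 and 15.2 CPM to 6.87, 6.30 and 7.34 CPM, with 8.48, 10.9 and 8.20 CPM when SFRP5 was added, 3 ranges that did not overlap (2.25-fold lower with IL-1β, log2 -1.17 ± 0.12, edgeR adjusted p = 1.71e-09). Psmg2 was at 19.5, 20.9 and 21.2 CPM, then 16.2, 16.5 and 18.0 CPM, then 15.6, 16.5 and 17.1 CPM (log2 -0.28 ± 0.08 for IL-1β, edgeR adjusted p = 0.00305). Psmg3 and Psmg4, the second chaperone dimer of the core, were not called. Psmg3 stood at 4.14, 3.52 and 4.77 CPM, then 3.95, 2.91 and 3.64 CPM, then 4.14, 4.29 and 5.02 CPM. Psmg4 was at 5.30, 7.18 and 7.36 CPM, then 6.50, 4.78 and 4.33 CPM, then 5.82, 4.42 and 5.07 CPM. It became called lower with IL-1β without control replicate 1 or IL-1β replicate 1 (edgeR adjusted p = 0.0187 and 0.0162), and under upper-quartile scaling (adjusted p = 0.011).

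Among the base chaperones, which hold the ATPase subunits before they meet the core, Psmd10 and Psmd5 were higher with IL-1β and Psmd9 was lower. Psmd10, also known as gankyrin, rose from 11.7, 12.0 and 12.2 CPM to 20.4, 22.6 and 21.6 CPM and was at 17.1, 15.9 and 15.4 CPM with SFRP5 (log2 0.85 ± 0.09, edgeR adjusted p = 1.77e-09). Psmd5 was at 42.1, 42.7 and 46.9 CPM, then 72.4, 70.8 and 67.3 CPM, then 55.2, 50.3 and 55.0 CPM (log2 0.68 ± 0.06, edgeR adjusted p = 2.91e-11). For both genes the 3 groups were separate, with SFRP5 in the middle, an order whose share among all genes tested was not counted. Psmd9 was at 18.7, 20.1 and 21.9 CPM in controls, 17.6, 16.5 and 15.9 CPM with IL-1β and 20.1, 18.3 and 18.4 CPM with SFRP5 (log2 -0.28 ± 0.08 for IL-1β, edgeR adjusted p = 0.00419).

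The activators that can take the place of the 19S particle also differed. Psme2, which forms the interferon-inducible PA28 ring with Psme1, had the largest fall of any member, from 20.8, 20.4 and 22.2 CPM to 6.74, 6.84 and 5.92 CPM, with 8.48, 6.70 and 5.96 CPM when SFRP5 was added (3.25-fold lower with IL-1β, log2 -1.70 ± 0.12, edgeR adjusted p = 9.22e-13). Its partner in that ring, Psme1, was level at 16.7, 15.8 and 14.4 CPM, then 15.8, 14.9 and 16.5 CPM, then 17.4, 15.9 and 14.9 CPM (log2 0.01 ± 0.09, edgeR adjusted p = 0.962). Psme2 has a near-identical copy in the mouse genome, Psme2b, over which reads can be divided. Psme2b was at 8.74, 10.0 and 9.85 CPM, then 9.84, 8.96 and 7.23 CPM, then 4.93, 5.72 and 7.73 CPM, and was not called for IL-1β (log2 -0.14 ± 0.15, edgeR adjusted p = 0.385). With the 2 rows added together the fall with IL-1β was smaller but was still called (log2 -1.02 ± 0.09, edgeR adjusted p = 4.91e-11).

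The remaining regulators were modestly higher with IL-1β. Psme3, the nuclear member of the PA28 family, was at 82.7, 80.2 and 79.8 CPM, then 102, 102 and 98.9 CPM, then 85.2, 91.5 and 87.1 CPM (log2 0.32 ± 0.05 for IL-1β, edgeR adjusted p = 6.47e-07). Psme4, the activator PA200, was at 102, 103 and 105 CPM, then 131, 128 and 142 CPM, then 116, 114 and 118 CPM (log2 0.37 ± 0.05, edgeR adjusted p = 7.38e-08). Psmf1, first described as a proteasome inhibitor, was at 38.7, 33.9 and 35.9 CPM, then 45.3, 50.0 and 44.9 CPM, then 42.3, 41.4 and 41.3 CPM (log2 0.37 ± 0.06, edgeR adjusted p = 6.53e-06). In all 3 genes every library with SFRP5 lay between the control and the IL-1β libraries, again without a count of this order over all genes.

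When SFRP5 was added to IL-1β, proteasome genes were mostly lower than with IL-1β alone. Of 48 tested members 27 were lower (56.2%), 1 was higher (2.08%) and 20 were not called, beside 15.7% lower and 15.6% higher among all genes tested. The differences were small: the median log2 change was -0.16, beside 0.01 for all genes, and the range ran from -0.62 to 0.42. The members were also expressed above most genes, with a median level of 63.1 CPM against 15.5 CPM for all genes tested and 39 of the 48 above that median, and the part of this in the count was not tested. DESeq2 called 23 members lower, and leaving out 1 library at a time left 20 to 27.

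By role, 14 of the 17 members in the 19S particle were lower with SFRP5 added (82.4%, median log2 -0.24). Of the 14 constitutive core genes 7 were lower (50%, median -0.14), beside 15.7% of all genes tested. The lid had the largest difference. Psmd11 fell by 0.62 on the log2 scale (SE 0.05, edgeR adjusted p = 1.39e-10), and Psmd8 by 0.33 (SE 0.04, edgeR adjusted p = 1.22e-07). Psmd14, Psmd7, Psmd3, Psmd12 and Psmd13 were lower too, and Psmd6 was not called. In the base, Psmd1 changed by -0.47 ± 0.04 (edgeR adjusted p = 1.74e-09), Psmc6 by -0.42 ± 0.04 (edgeR adjusted p = 3.62e-08), Psmd4 by -0.24 ± 0.05 (edgeR adjusted p = 1.71e-04) and Psmd2 by -0.19 ± 0.04 (edgeR adjusted p = 4.93e-04). Psmc1, Psmc2 and Psmc4 were lower, while Psmc3 and Psmc5 were not called. Psmd3, Psmd12, Psmd13 and Psmc4, with log2 changes of -0.15 to -0.17, each lost the call when some single libraries were left out (edgeR adjusted p = 0.052 to 0.239 without IL-1β replicate 1, 2 or 3, SFRP5 replicate 1, 2 or 3, or control replicate 2 or 3). In DESeq2 Psmd12, Psmc4 and Psmd13 were not called either (adjusted p = 0.0773, 0.0720 and 0.0557). Psmd12 and Psmc4 also lost the call under upper-quartile scaling (edgeR adjusted p = 0.0721 and 0.0610) and with only the 6 libraries compared.

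In the core, 5 alpha genes were lower with SFRP5 (62.5%, beside 15.7% of all genes tested): Psma2, Psma3, Psma4, Psma6 and Psma7. Of these Psma6 changed most, by -0.50 ± 0.05 on the log2 scale (edgeR adjusted p = 9.70e-09). Psma1, Psma5 and Psma8 were not called, though Psma1 was called lower without IL-1β replicate 2 or SFRP5 replicate 2 (edgeR adjusted p = 0.0499 and 0.0204). The call of Psma4 was lost without IL-1β replicate 2 or SFRP5 replicate 1 (edgeR adjusted p = 0.135 and 0.0875). Of the beta ring Psmb4 and Psmb7 were lower and Psmb1, Psmb2, Psmb3, Psmb5 and Psmb6 were not called. Psmb4 changed by -0.15 ± 0.05 (edgeR adjusted p = 0.0313) with overlapping groups, and lost the call without IL-1β replicate 1 or 2 or SFRP5 replicate 1 or 3 (edgeR adjusted p = 0.0659 to 0.202). It was also lost under upper-quartile scaling (edgeR adjusted p = 0.0527). Psmb7 changed by -0.17 ± 0.06 (edgeR adjusted p = 0.0211) and lost the call without IL-1β replicate 2 or SFRP5 replicate 3 (edgeR adjusted p = 0.167 and 0.132). Neither Psmb5 nor Psmb10 was called here: Psmb5 changed by 0.09 ± 0.06 (edgeR adjusted p = 0.298) and Psmb10 by 0.10 ± 0.21 (edgeR adjusted p = 0.768). The immunoproteasome subunits had too few counts to show small differences, with an SE of 0.51 for Psmb8 and 0.62 for Psmb9.

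Psmg1 was the 1 member called higher with SFRP5 added (log2 0.42 ± 0.13, edgeR adjusted p = 0.0138). That call was lost without IL-1β replicate 2 or SFRP5 replicate 2, the library with the highest Psmg1 level (edgeR adjusted p = 0.0616 and 0.107). Of the base chaperones Psmd10 changed by -0.41 ± 0.08 (edgeR adjusted p = 4.01e-04) and Psmd5 by -0.39 ± 0.05 (edgeR adjusted p = 4.06e-06), while Psmg2, Psmg3, Psmg4 and Psmd9 were not called. Among the activators Psme3 and Psme4 both changed by -0.20 (SE 0.05, edgeR adjusted p = 0.00135 and 0.0015), Psmf1 by -0.16 ± 0.06 (edgeR adjusted p = 0.0457) and Psme2b by -0.51 ± 0.16 (edgeR adjusted p = 0.0156). With the rows of Psme2 and Psme2b added together the change was -0.20 and was not called (edgeR adjusted p = 0.118). Psme1 and Psme2 were not called. The Psmf1 call was lost without control replicate 3, IL-1β replicate 2 or SFRP5 replicate 1, 2 or 3, and that of Psme2b without IL-1β replicate 1 or SFRP5 replicate 1 (edgeR adjusted p = 0.0554 to 0.24 over both genes). Psmf1 also lost its call under upper-quartile scaling (edgeR adjusted p = 0.0714), without the filter on low counts (edgeR adjusted p = 0.0656) and in DESeq2 (adjusted p = 0.0966).

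Against control, the cells given IL-1β and SFRP5 had 16 members higher (33.3%) and 23 lower (47.9%), beside 37.3% and 39% of all genes. The median log2 change was -0.15, beside -0.02. Of the 19S genes 8 were higher and 6 lower, and of the constitutive core genes 3 were higher and 10 lower. Psmd8 was 4.26-fold above control (log2 2.09 ± 0.04, edgeR adjusted p = 1.52e-24), Psmd11 was 1.65-fold above (log2 0.72 ± 0.05, edgeR adjusted p = 1.25e-12) and Psma6 1.33-fold above (log2 0.41 ± 0.05, edgeR adjusted p = 6.92e-08). Psmb5 was 2.02-fold below (log2 -1.02 ± 0.06, edgeR adjusted p = 1.58e-14), Psme2 2.97-fold below (log2 -1.57 ± 0.11, edgeR adjusted p = 3.50e-12) and Psmb10 2.89-fold below (log2 -1.53 ± 0.18, edgeR adjusted p = 2.55e-08). Psmc1, Psmd3 and Psmd7 were not called against control in this group. Many of the small differences hung on the scaling: with upper-quartile factors 8 members were higher and 27 lower, and Psmd1 and Psme3, called higher at log2 0.10 and 0.12, changed sign, to -0.03 and -0.01. Psmd1 also lost its call without control replicate 1 or 2 or SFRP5 replicate 1 (edgeR adjusted p = 0.0705 to 0.117), and Psme3 without control replicate 2 or 3 (edgeR adjusted p = 0.062 and 0.0752). The 3 comparisons share libraries by pairs, so their values for a gene are not independent of each other.

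A list of 36 genes that work with the proteasome was examined in the same fit, of which 34 were in the table and 33 were tested. With IL-1β 21 were higher (63.6%) and 8 lower (24.2%), beside 38.5% and 40.4% of all genes, with a median log2 change of 0.58. Of the associated factors and assembly helpers, 6 of 8 were higher: Uchl5, Usp14, Ube3c, Akirin2, Txnl1 and Pomp. Pomp, the maturation factor of the core, was at 46.3, 53.8 and 51.2 CPM in controls, 68.5, 64.9 and 65.6 CPM with IL-1β and 51.2, 53.1 and 50.4 CPM with SFRP5, overlapping control again (log2 0.39 ± 0.05 for IL-1β, edgeR adjusted p = 4.41e-07). Sem1, the smallest lid subunit, was lower, and Adrm1, a ubiquitin receptor, was not called.

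Of the transcription factors known for proteasome genes, Nfe2l1, which raises subunit genes when proteasome activity is short, was abundant and nearly level. It was at 731, 729 and 731 CPM, then 809, 818 and 799 CPM, then 807, 824 and 827 CPM (log2 0.15 ± 0.03 for IL-1β, edgeR adjusted p = 2.16e-04). Nfe2l2, the antioxidant response factor, was at 76.9, 80.7 and 81.4 CPM, then 778, 755 and 720.0 CPM, then 656, 647 and 609 CPM, a 9.42-fold rise with IL-1β (log2 3.24 ± 0.04, edgeR adjusted p = 9.67e-28). Ubb, a polyubiquitin gene that supplies the tag, rose from 513, 570.0 and 553 CPM to 1577, 1417 and 1253 CPM (log2 1.38 ± 0.06, edgeR adjusted p = 5.57e-17). The shuttle Rad23b rose from 192, 198 and 191 CPM to 452, 456 and 451 CPM (log2 1.23 ± 0.04, edgeR adjusted p = 3.69e-20). The autophagy receptor Sqstm1 rose 15.1-fold, from 341, 355 and 348 CPM to 5566, 5384 and 4839.9 CPM (edgeR adjusted p = 5.17e-28). Keap1, Vcp and Uba1 were not called.

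Interferon and antigen presentation genes, which share regulators with the immunoproteasome, were divided. Irf1 was at 7.93, 8.80 and 7.77 CPM in controls, 74.1, 67.3 and 63.1 CPM with IL-1β and 28.0, 26.9 and 23.9 CPM with SFRP5 (log2 3.06 ± 0.08 for IL-1β, edgeR adjusted p = 2.01e-21). Nlrc5, the MHC class I transactivator, was low but higher with IL-1β, at 1.67, 1.22 and 1.12 CPM, then 2.86, 3.09 and 2.45 CPM, then 3.21, 2.80 and 2.54 CPM (log2 1.06 ± 0.25, edgeR adjusted p = 4.40e-04). The peptide transporter gene Tap2 fell from 13.9, 13.9 and 13.3 CPM to 4.01, 4.06 and 3.98 CPM (log2 -1.77 ± 0.15, edgeR adjusted p = 3.56e-11), and Tap1 by 0.39 on the same scale (SE 0.11, edgeR adjusted p = 0.00223). The class I heavy chains H2-K1 and H2-D1 and the loading factor Tapbp rose, by log2 3.32 ± 0.04, 1.40 ± 0.04 and 1.72 ± 0.04 (edgeR adjusted p = 1.66e-28, 1.08e-20 and 2.25e-22). B2m and Erap1 were also higher. Among genes of MHC class I presentation the heavy chains were thus higher while Psmb10, Psme2 and Tap2 were lower.

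With SFRP5 added to IL-1β, 19 of the 33 tested genes of this list were lower (57.6%) and none was higher, beside 15.7% and 15.6% of all genes. DESeq2 likewise called none higher, and upper-quartile scaling called 1. At least 2-fold lower were Irf1 (log2 -1.37 ± 0.07, edgeR adjusted p = 6.85e-14) and Sqstm1 (log2 -1.14 ± 0.05, edgeR adjusted p = 5.58e-16). Pomp changed by -0.36 ± 0.06 (edgeR adjusted p = 1.18e-05) and Nfe2l2 by -0.24 ± 0.04 (edgeR adjusted p = 3.64e-05), while Nfe2l1, Nlrc5, Tap1 and Tap2 were not called. Against control, 19 of the list were higher (57.6%) and 9 lower (27.3%) in the cells given IL-1β and SFRP5, beside 37.3% and 39% of all genes.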

How the data were processed

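RNA sequencing of 9 libraries was deposited as 1 table of raw counts per gene. Per the labels' protocols and the submitters' processing notes, the authors trimmed reads with fastp, aligned them with STAR to mouse mm10 and quantified them with RSEM from a directional library kit; versions, annotation and the strand used in counting are not given in the sources used here, nor how RSEM estimates became whole numbers. The table also holds a deposited gene length in bases; it equalled the exon union of GENCODE M21 for 50117 of 52125 shared gene IDs. Gene positions in the table were used only to find genes that overlap a member.

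Groups came from sample titles, and all value columns were matched to samples by letter and number. The columns of the SFRP5 group carry further digits that the labels do not explain, and only their last digit was used. Counts were fitted with edgeR 4.0.16 (R 4.3.3): filterByExpr by group, TMM factors, 1 mean per group, 1 quasi-likelihood fit over 9 libraries, Benjamini-Hochberg adjustment over 15502 genes, calls at 0.05. The SE is the log2 change divided by the square root of its F statistic. The common biological coefficient of variation was 4.97%. Alternatives were RLE and upper-quartile factors, no filter, DESeq2 1.42.0, 6 libraries only, a replicate block and leaving out each library. Adding near-identical copies (at least 95% identical over 200 bases), the principal transcript length and the 19S sum without Psmd8 were chosen after seeing the data.

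Named with values were the catalytic subunits, the regulators, the chaperones, and in each role the member with the highest and lowest change for IL-1β and for SFRP5; of the working partners, those changed at least 2-fold, plus Nfe2l1, Pomp and Tap1. Some genes of the lists are not reported here by name. Members and lists were chosen with earlier results of these data known. No 2 libraries of a group agreed within sampling noise (chi-square per gene 2.20 to 4.79).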

Additional observations from a re-analysis of the deposited data

How the results depend on the processing

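For members higher and lower in the 3 comparisons, the replicate block gave 20 and 18, 1 and 27, and 16 and 23, the same counts as without it. Deviations from the group means correlated at -0.036 to 0.040 between libraries with the same number and at -0.039 to 0.055 otherwise, so the numbers were not taken as pairs. With upper-quartile factors, members higher in the cells given both agents against control numbered 8 rather than 16, and of the working partners 1 rather than none was higher with SFRP5 added. That scaling also turned Psmd1 (log2 -0.034) and Psme3 (log2 -0.0145) against control. Leaving out 1 library at a time gave 0 to 1 members higher with SFRP5 added. The other counts of members stayed within 1.5 times under every alternative run. Single calls changed under some alternative for 11, 11 and 15 members in the comparisons of IL-1β with control, of SFRP5 added with IL-1β, and of both agents with control. Depth limited Psmb8 and Psmb9, with 82 and 80 counts over all libraries.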
